A study of Nasonia vitripennis with 76 samples.

Results

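*Mrjpl3* and *Mrjpl5* are a pair of royal jelly-like genes of the parasitoid wasp *Nasonia vitripennis*, and they were 2 of the 14621 genes in the count table. They were selected on earlier results in male abdomens of these same libraries: *Mrjpl3* for its difference between generations and *Mrjpl5* for its difference between haploid and diploid F3 males. Those comparisons, and the interaction built from them, are therefore described here without a test. All 19 other comparisons per gene were tested, and *Mrjpl3* passed the threshold in 7 of them and *Mrjpl5* in 9. These counts include the sex comparisons of abdomens and the tissue comparison of males, which use male abdomen libraries behind the choice and are not independent of it. Most calls were in comparisons of generations, sexes or tissues in which 43.9% to 88.7% of all genes tested passed. The other calls were for a change of the ploidy difference between generations, where 8.64% (male heads) or 11.3% (female abdomens) passed.

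Royal jelly-like genes belong to the same family as the yellow genes of insects, named after a *Drosophila* gene needed for dark cuticle pigment. In the honeybee, major royal jelly proteins are secreted by the hypopharyngeal glands of nurse workers, in the head, and make up most of the protein of royal jelly, the food of queen larvae. *Nasonia* makes no royal jelly, and its royal jelly-like genes multiplied separately from those of bees; what each of them does in the wasp is not known from the sources used here. In the symbol table of assembly Nvit_psr_1.1, which pairs the gene identifiers with names, both genes are protein-coding and lie on chromosome 3 in a row of the family. The order there is *Y-h*, *Mrjpl5*, *Mrjpl4*, *Mrjpl3*, *Mrjpl2*, *Y-e3*, *Y-e* and *Y-g2b*, with 2 genes known only by LOC numbers among them. The span of *Mrjpl5* overlaps that of *Y-h*, and the span of LOC100119898 overlaps every other gene of the row. These are spans of whole genes, and the strand setting of the counting is not stated, so the spans alone do not show how many reads fit several genes. RSEM, the counting program, shares reads that fit several genes by estimation, which leaves counts that are not whole. Counts of *Mrjpl3* were whole in every library, counts of *Mrjpl5* and *Y-h* were not whole in 4 of 76, and counts of *Mrjpl4* and LOC100119898 were not whole in 42 of 76. The counts of *Mrjpl5* that were not whole were 260.92 in A51, 8749.97 in A78, 15553.98 in A88 and 15861.99 in A77.

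The 76 libraries were made from polyadenylated RNA of adult heads or abdomens, taken 1 day after emergence from wasps of the TRA strain, and form 16 groups. TRA is a line with raised ploidy that goes back to a knockdown of *transformer*, the gene that sets female development in this wasp, and every group here belongs to it. Females were 2N (diploid) or 3N (triploid) and came from the F2 or the F14 generation. Males were 1N (haploid, the usual state of males of this species) or 2N and came from F3 or F15. Each of these 8 kinds of wasp is represented by heads and by abdomens. Of the 16 groups, 14 hold 5 libraries each; F2 2N female abdomens and F3 2N male abdomens hold 3. F2 and F3 are called early here, and F14 and F15 late. The labels do not say whether the libraries of a group are separate wasps, pools or rearings, so all p-values measure only the spread between these libraries. No group spans generations and no batch is labelled, so generation cannot be told apart from a difference between library batches. In whole heads and abdomens, fewer cells of a type and less RNA per cell cannot be told apart either.

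The depth was between 14.2 and 60.1 M counts (median 21.6 M). The eye opsin gene *Lop1* was at 725 CPM (counts scaled to 1 M per library) or more in the 39 other head libraries and at 5.70 CPM or less in the abdomens. *oskar*, a germ plasm gene of the ovary, was at 403 CPM or more in female abdomens and at 7.40 CPM or less in male ones. The library labelled A34, a head of F2 3N females, had 0 CPM of *Lop1* and 742 CPM of *oskar* and correlated best with an abdomen of F2 3N females, so it was set apart. Its levels were 58.1 CPM of *Mrjpl3* and 9.87 CPM of *Mrjpl5*, and keeping it changed no call of either gene. Of the other heads, A35 of F2 3N females correlated best with A2A, a head of F3 1N males. No pair of libraries of a group agreed within sampling noise.

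Both genes were highest in males of the late generation and lowest in females. Levels here are CPM scaled by the TMM method over all libraries. *Mrjpl3* stood at 481 ± 195 CPM (SD, n = 5) in F15 2N male abdomens and at 16.7 ± 10.2 CPM (SD, n = 5) in F14 3N female heads, a ratio of 28.8 between the highest and the lowest group mean. *Mrjpl5* stood at 482 ± 63.1 CPM (SD, n = 5) in F15 1N male abdomens and at 1.88 ± 1.55 CPM (SD, n = 3) in F2 2N female abdomens, a ratio of 257. The range of *Mrjpl5* was thus set by the abdomens at both ends.

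For *Mrjpl3* the order of the groups by mean CPM opened with F15 2N male abdomens, F15 1N male abdomens, F15 1N male heads and F15 2N male heads. Next came F3 2N male abdomens and F3 2N male heads, then 8 groups with means between 45.3 and 61.1 CPM, and last the F14 female heads of both ploidies. The libraries of every pair of neighbours in this order overlapped. For *Mrjpl5* the order opened with F15 1N, F15 2N and F3 2N male abdomens, followed by F15 1N male heads, F3 1N male abdomens and F15 2N male heads. Female heads, F3 male heads and F14 2N female abdomens filled the middle, and the other female abdomens stood last. Between neighbours in this order, a gap without overlap was present only between F3 2N male abdomens and F15 1N male heads. In TPM (transcripts per 1 M transcripts, a unit that allows for gene length) the 6 highest groups of each gene were the same 6, although only 1 of the 16 groups kept its exact place for *Mrjpl3* and 9 did for *Mrjpl5*.

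**Figure D1:**
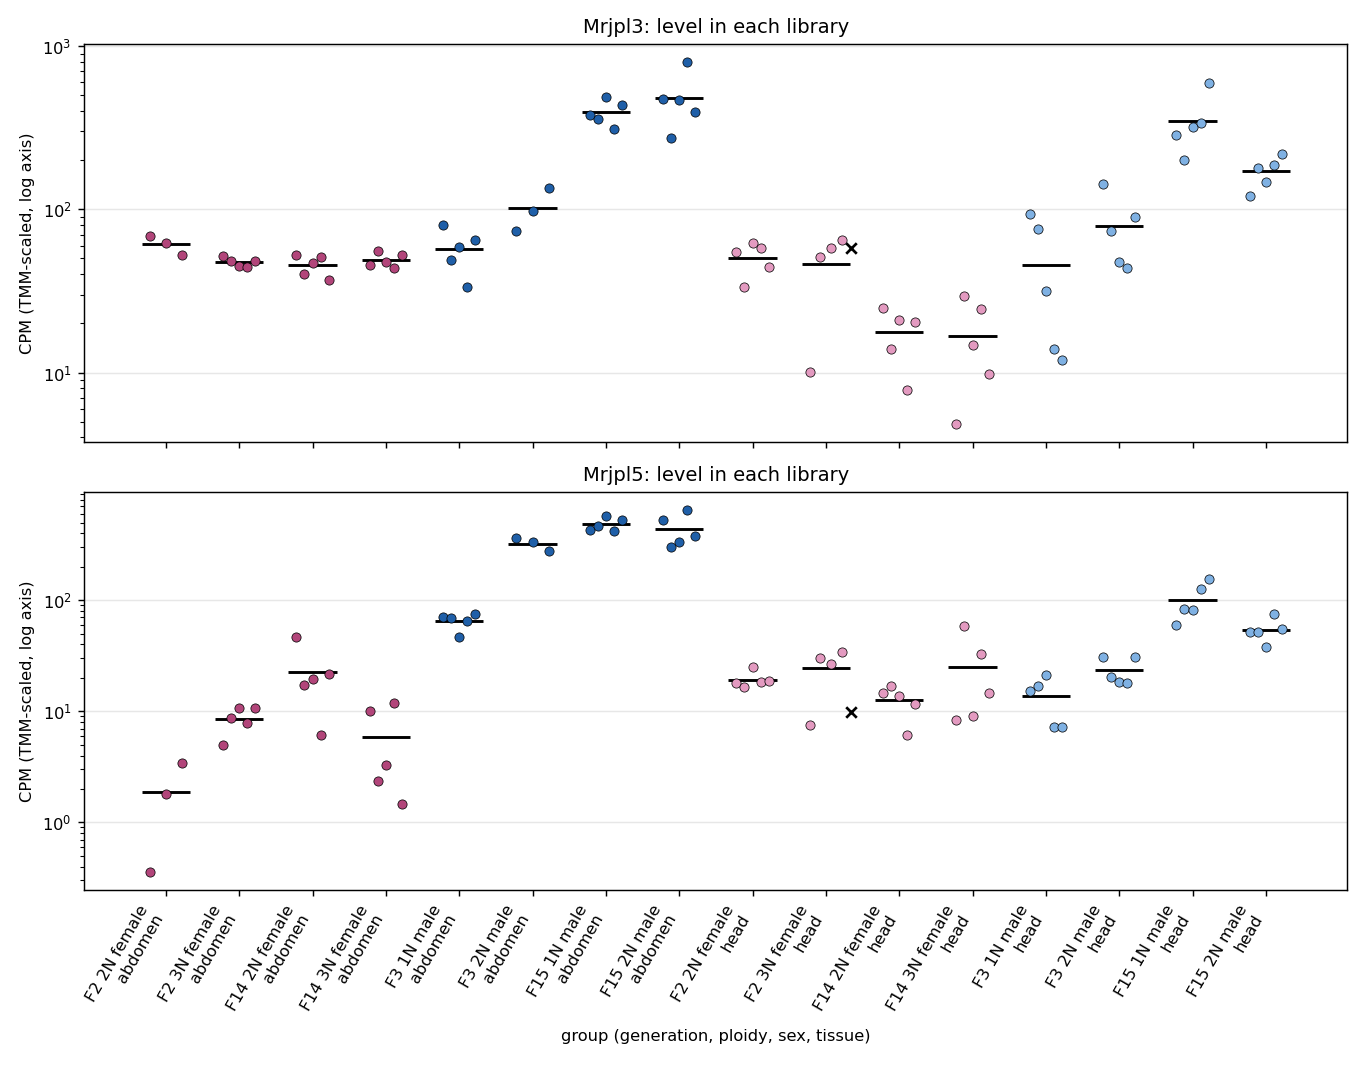
Level of *Mrjpl3* (upper) and *Mrjpl5* (lower) in each library, in CPM on a log axis, by group; points are libraries, black lines are group means without A34, and the cross is A34. The F15 male groups stand highest for *Mrjpl3*, while for *Mrjpl5* the F3 2N male abdomens (276 to 361 CPM) stand with the F15 abdomens.

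In male abdomens, the tissue on which the pair was selected, the genes differed in when they were high. *Mrjpl3* was at 33.5, 48.7, 59, 64.9 and 80.1 CPM in F3 1N libraries and at 73.7, 97.1 and 134 CPM in F3 2N libraries. In F15 it was at 309, 360, 377, 435 and 490 CPM in 1N and at 274, 395, 464, 475 and 798 CPM in 2N. Every F15 library was above every F3 library, and the ploidies overlapped within each generation. The log2 difference was 2.55 ± 0.23 (SE) between late and early and 0.94 ± 0.30 between F3 2N and F3 1N.

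*Mrjpl5* was at 46.8, 65.2, 68.6, 70.5 and 74.8 CPM in F3 1N abdomens and at 276, 334 and 361 CPM in F3 2N ones. In F15 abdomens it was at 422, 430, 465, 526 and 568 CPM in 1N and at 302, 335, 376, 531 and 645 CPM in 2N. F3 1N libraries were thus low alone, and F3 2N libraries overlapped with F15 2N libraries. The log2 difference was 2.42 ± 0.22 (SE) between F3 2N and F3 1N and 1.70 ± 0.16 between late and early, and the ploidy difference of F15 minus that of F3 was -2.60 ± 0.30. For *Mrjpl3* the same contrast of ploidy differences was -0.69 ± 0.41, and -0.44 without A16, the library with 134 CPM.

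Between the ploidies of F15 male abdomens, a comparison that neither choice used, no difference passed the test. The F15 libraries themselves were among those behind the choice of *Mrjpl3*. The log2 difference, 2N minus 1N, was 0.24 ± 0.27 for *Mrjpl3* (adjusted p = 0.702) and -0.18 ± 0.20 for *Mrjpl5* (adjusted p = 0.693), by the quasi-likelihood test of edgeR with Benjamini-Hochberg adjustment over all genes of the fit. These adjusted p-values are used throughout, with 0.05 as the threshold, and 4.11% of all genes tested passed in this comparison. Without A87, the library with 798 CPM of *Mrjpl3*, the difference of *Mrjpl3* was 0.01.

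In male heads both genes were higher in the late generation. *Mrjpl3* was at 11.9, 13.9, 31.7, 75.9 and 93.2 CPM in F3 1N heads and at 199, 286, 320, 339 and 597 CPM in F15 1N heads. It was at 43.6, 47.7, 73.8, 89.2 and 142 CPM in F3 2N heads and at 121, 147, 180, 186 and 220 CPM in F15 2N heads. The generations did not overlap in 1N heads, with a ratio of means of 7.68, and overlapped by 1 library of each in 2N heads, with a ratio of 2.15. The generation difference of *Mrjpl3*, late minus early over both ploidies, was 1.98 ± 0.35 on the log2 scale (adjusted p = 0.000121), in a comparison in which 51.4% of all genes tested passed.

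*Mrjpl5* was at 7.19, 7.29, 15.4, 17 and 21.2 CPM in F3 1N heads and at 59.7, 81, 84.1, 126 and 154 CPM in F15 1N heads. It was at 18.1, 18.4, 20.5, 30.9 and 31.1 CPM in F3 2N heads and at 38, 51.4, 51.9, 55.5 and 74.6 CPM in F15 2N heads. The generations did not overlap at either ploidy, with ratios of means of 7.41 in 1N and 2.28 in 2N heads. The generation difference of *Mrjpl5* was 1.99 ± 0.22 on the log2 scale (adjusted p = 8.2e-07).

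The ploidy differences of male heads had opposite signs in F3 and F15. In F3 heads the log2 difference, 2N minus 1N, was 0.81 ± 0.48 for *Mrjpl3* (adjusted p = 0.284) and 0.80 ± 0.30 for *Mrjpl5* (adjusted p = 0.0914), where 12% of all genes tested passed. In F15 heads it was -0.98 ± 0.48 for *Mrjpl3* (adjusted p = 0.296) and -0.85 ± 0.30 for *Mrjpl5* (adjusted p = 0.131), where 3.25% passed. None of these passed, and the ploidies overlapped in every case. The change of the ploidy difference between generations passed for *Mrjpl5*, at -1.65 ± 0.43 on the log2 scale (adjusted p = 0.0228), and not for *Mrjpl3*, at -1.78 ± 0.67 (adjusted p = 0.107), where 8.64% of all genes tested passed.

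The lowest F3 1N heads for both genes were A1A and A2A, which also had high *Lop1*, at 11651 and 16001 CPM. Their closest libraries across all genes were each other. A15A, with the highest *Mrjpl3* of F3 2N heads, had 9208 CPM of *Lop1*. The labels of these 3 libraries, unlike all others, end in the letter A, and its meaning is not stated. Their depth was 14.21 to 16.21 M counts, against 18.98 to 28.12 M in the other F3 male heads. Without these 3 libraries the F3 ploidy difference of *Mrjpl3* was -0.08 on the log2 scale, against 0.81 with them, and that of *Mrjpl5* was 0.30. The generation differences were then 1.87 for both genes. The change of the ploidy difference between generations was then -0.91 for *Mrjpl3* (adjusted p = 0.191) and -1.17 for *Mrjpl5* (adjusted p = 0.035). For that change 2706 of 11221 genes tested passed, against 946 of 10943 with the 3 libraries kept.

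In female heads the generations parted for *Mrjpl3*, in the direction opposite to that in male heads; the difference between the sexes was not tested. It was at 33.3, 44.3, 55, 57.9 and 62.6 CPM in F2 2N heads and at 7.80, 13.9, 20.5, 21.1 and 25 CPM in F14 2N heads, without overlap. It was at 10.1, 50.8, 58.1 and 64.7 CPM in F2 3N heads and at 4.85, 9.82, 14.8, 24.4 and 29.6 CPM in F14 3N heads. The overlap there came from A35 alone, the library with 10.1 CPM, which had 19747 CPM of *Lop1*, the highest of the heads. The generation difference of *Mrjpl3* was -1.49 ± 0.34 on the log2 scale (adjusted p = 0.00114) and -1.65 without A35, where 60.1% of all genes tested passed. Markers of other cells differed too. In 2N heads the nerve gene *Para* was at 397 to 522 CPM in F2 and at 139 to 165 CPM in F14. Another nerve gene, *Syt1*, was at 639 to 1015 and at 1402 to 1602 CPM. The muscle gene *Tm1* was at 526 to 556 and at 1357 to 2851 CPM. The part of these cells in the result of *Mrjpl3* was not tested.

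For *Mrjpl5* no generation difference passed in female heads. It was at 16.4, 18, 18.4, 18.7 and 25 CPM in F2 2N heads and at 6.16, 11.5, 13.8, 14.5 and 16.8 CPM in F14 2N heads. In 3N heads it was at 7.59, 26.7, 29.96 and 34.1 CPM in F2 and at 8.39, 9.14, 14.7, 32.9 and 59.2 CPM in F14, with wide overlap. Its generation difference was -0.30 ± 0.35 on the log2 scale (adjusted p = 0.467), and -0.61 without A54, the library with 59.2 CPM (adjusted p = 0.0828).

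No ploidy difference of the pair passed in female heads. In F2 the log2 difference, 3N minus 2N, was -0.13 ± 0.49 for *Mrjpl3* (adjusted p = 0.909) and 0.36 ± 0.50 for *Mrjpl5* (adjusted p = 0.725), where 5.82% of all genes tested passed. In F14 it was -0.04 ± 0.47 for *Mrjpl3* (adjusted p = 0.975) and 1.02 ± 0.48 for *Mrjpl5* (adjusted p = 0.232), where 3.57% passed. The F14 value of *Mrjpl5* rested in part on A54, with 59.2 CPM, and was 0.40 without it. A54 was the highest of its 5 libraries for 7 of 12 genes of the family over 1 CPM there, against 19% of all genes. That count includes both genes of the pair. A52, next highest for *Mrjpl5*, was the highest for 1 of 12, against 11.8%. A55, lowest for both genes, was the lowest for 4 of 12 with the pair included, against 20.7%. The change of the ploidy difference between generations was 0.09 ± 0.67 for *Mrjpl3* (adjusted p = 0.952) and 0.66 ± 0.69 for *Mrjpl5* (adjusted p = 0.584), where 6.47% of all genes tested passed. Without A54 the value of *Mrjpl5* was 0.04.

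In female abdomens *Mrjpl3* was nearly level and *Mrjpl5* low and uneven. *Mrjpl3* was at 52.3, 62.4 and 68.6 CPM in F2 2N and at 44.4, 44.7, 47.9, 48.4 and 51.6 CPM in F2 3N abdomens. In F14 it was at 36.9, 40.3, 47.1, 50.9 and 52.4 CPM in 2N and at 43.6, 45.6, 47.6, 52.5 and 55.7 CPM in 3N abdomens. F2 2N libraries were above F2 3N libraries without overlap, and the other groups overlapped. The generation difference of *Mrjpl3* was -0.17 ± 0.09 on the log2 scale (adjusted p = 0.127), where 43.9% of all genes tested passed.

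*Mrjpl5* was at 0.358, 1.82 and 3.45 CPM in F2 2N abdomens, from 9, 56 and 101 estimated counts. It was at 5.005, 7.86, 8.69, 10.7 and 10.7 CPM in F2 3N abdomens, above every F2 2N library. In F14 the order of the ploidies turned, with 6.12, 17.4, 19.7, 21.8 and 47.1 CPM in 2N and 1.47, 2.36, 3.31, 10.1 and 11.8 CPM in 3N abdomens, which overlapped. The generation difference of *Mrjpl5* was 1.53 ± 0.50 on the log2 scale (adjusted p = 0.0199). Its group means went from 1.88 to 22.4 CPM in 2N abdomens, without overlap, and from 8.59 to 5.82 CPM in 3N ones, which overlapped. Markers of other cells moved in the same comparison: the nerve genes *Syt1* and *Para* rose by 1.29 (adjusted p = 0.000282) and 1.44 (adjusted p = 0.000761) on the log2 scale and the muscle gene *Tm1* by 0.76 (adjusted p = 0.000255), while the cell cycle gene *cycB* fell by 0.70 (adjusted p = 0.0245). The ovary genes *oskar*, at -0.18 (adjusted p = 0.125), and *nanos*, at -0.24 (adjusted p = 0.143), did not pass. The part of these cells in the result of *Mrjpl5* was not tested.

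Neither ploidy difference in female abdomens passed alone. In F2 the log2 difference, 3N minus 2N, was -0.42 ± 0.13 for *Mrjpl3* (adjusted p = 0.179) and 2.15 ± 0.78 for *Mrjpl5* (adjusted p = 0.225), in a comparison in which 0% of all genes tested passed in edgeR. There edgeR gave 1635 genes with an unadjusted p below 0.05, and DESeq2 called 394 genes, with neither of the pair among them. In F14 the log2 difference was 0.16 ± 0.12 for *Mrjpl3* (adjusted p = 0.348) and -1.91 ± 0.63 for *Mrjpl5* (adjusted p = 0.125), where 0.0553% of all genes tested, 6 genes, passed. DESeq2 called 613 genes there, and *Mrjpl5* was among them (adjusted p = 0.0299).

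The change of the ploidy difference from F2 to F14 passed for both genes in female abdomens, in opposite directions. It was -4.06 ± 1.01 on the log2 scale for *Mrjpl5* (adjusted p = 0.0271) and 0.58 ± 0.18 for *Mrjpl3* (adjusted p = 0.0447), where 11.3% of all genes tested passed. Of the markers, *Syt1* passed there too, at -1.44 (adjusted p = 0.0384), and *Para*, at -1.48 (adjusted p = 0.0725), and *oskar*, at 0.53 (adjusted p = 0.0703), did not; their part was not tested. The call of *Mrjpl5* was lost without any 1 of 7 of the 18 libraries, with adjusted p up to 0.0623. The call of *Mrjpl3* was lost without any 1 of 13 of them, and also with RLE size factors (adjusted p = 0.0601). A28 was lowest for *Mrjpl5* in F2 2N abdomens. It was the lowest of its 3 libraries for 10 of 11 genes of the family over 1 CPM there, against 37.8% of all genes. A70, highest for *Mrjpl5* in F14 2N abdomens, was the highest of its 5 libraries for 10 of 12, against 25.1% of all genes. A67 was the lowest in F14 2N abdomens for 7 of 12, against 21.4% of all genes, and A57 the highest in F14 3N abdomens for 8 of 11, against 36.3%. Each of these counts includes *Mrjpl5* itself, and that of A70 also includes *Mrjpl3*. A60, next highest after A57 for *Mrjpl5* in F14 3N abdomens, was the highest for 1 of 11, against 7.2%. The F14 ploidy difference of *Mrjpl5* was -2.15 without A67 (adjusted p = 0.0464) and -2.32 without A57 (adjusted p = 0.0256), and passed in both cases. The part of these libraries in the ploidy differences was not tested beyond leaving each out.

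**Figure D2:**
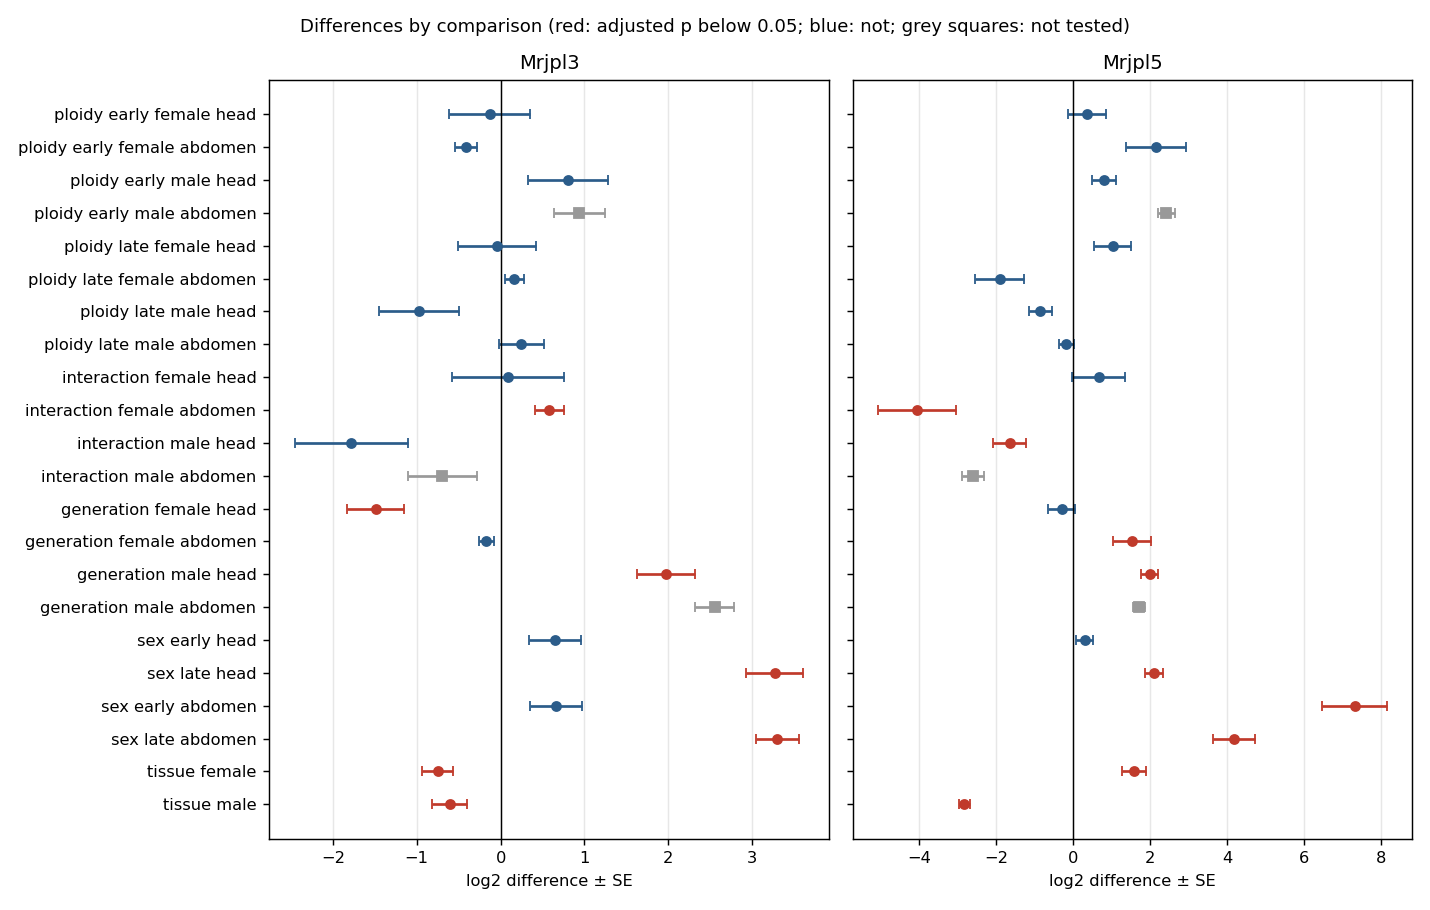
Log2 differences of *Mrjpl3* and *Mrjpl5* in each comparison, with bars of 1 standard error; ploidy is higher minus lower, interaction is late minus early ploidy difference, generation is late minus early, sex is male minus female at 2N and tissue is head minus abdomen. Red points passed the threshold, blue points did not and grey squares were not tested; the sex difference of *Mrjpl5* in early abdomens, at 7.32, lies farthest from 0, and the axes of the panels differ.

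Males exceeded females in both genes where 2N wasps of the late generation were compared. In heads *Mrjpl3* was at 7.80 to 25 CPM in F14 females and at 121 to 220 CPM in F15 males, and *Mrjpl5* was at 6.16 to 16.8 and at 38 to 74.6 CPM. In abdomens *Mrjpl3* was at 36.9 to 52.4 CPM in F14 females and at 274 to 798 CPM in F15 males, and *Mrjpl5* was at 6.12 to 47.1 and at 302 to 645 CPM. None of these ranges overlapped. The log2 difference in heads, male minus female, was 3.27 ± 0.34 for *Mrjpl3* (adjusted p = 2.02e-07) and 2.10 ± 0.24 for *Mrjpl5* (adjusted p = 2.51e-07), where 60.6% of all genes tested passed. In abdomens it was 3.30 ± 0.26 for *Mrjpl3* (adjusted p = 1.47e-08) and 4.18 ± 0.56 for *Mrjpl5* (adjusted p = 7.43e-06), where 76% passed. The F15 male abdomens were among the libraries behind the choice of *Mrjpl3*, so its abdominal difference is not independent of that choice.

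In the early generation the 2 genes parted between the sexes. In 2N abdomens *Mrjpl5* was at 0.358 to 3.45 CPM in F2 females and at 276 to 361 CPM in F3 males. Its log2 difference there was 7.32 ± 0.84 (adjusted p = 1.54e-06), where 82.3% of all genes tested passed. *Mrjpl3* was at 52.3 to 68.6 CPM in F2 and at 73.7 to 134 CPM in F3 2N abdomens, without overlap, and its difference of 0.66 ± 0.30 did not pass (adjusted p = 0.0564). With RLE size factors that difference was 0.90 and passed (adjusted p = 0.0149), and without A16, the library with 134 CPM, it was 0.32. In 2N heads neither gene passed, with 0.65 ± 0.31 for *Mrjpl3* (adjusted p = 0.0915) and 0.30 ± 0.23 for *Mrjpl5* (adjusted p = 0.274), where 53% of all genes tested passed. Whether the sex differences changed between generations was not tested. The male abdomens in these comparisons are also among the libraries on which the pair was selected, so the abdominal sex differences are not independent of that choice. The germ plasm gene *oskar* was at 403 CPM or more in female abdomens and at 7.40 CPM or less in male ones, and the part of ovary RNA in these differences was not tested.

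Between heads and abdomens *Mrjpl5* went opposite ways in the sexes. In males its abdomens were above its heads in each of the 4 pairs of groups, by ratios of means from 4.77 to 13.6, and no pair of groups overlapped. The log2 difference in males, head minus abdomen, was -2.84 ± 0.14 (adjusted p = 5.26e-19), where 80.5% of all genes tested passed. In females *Mrjpl5* was higher in heads by 1.58 ± 0.31 on the log2 scale (adjusted p = 1.7e-05), where 88.7% of all genes tested passed. Its group means there were higher in heads in 3 of the 4 pairs, with ratios of 10.3 in F2 2N, 2.86 in F2 3N and 4.27 in F14 3N, and lower in F14 2N, with 12.6 CPM in heads and 22.4 CPM in abdomens. The difference between the sexes was not tested, and the male abdomens are again libraries behind the choice of the pair.

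In CPM *Mrjpl3* was lower in heads than in abdomens in both sexes, and in TPM the direction turned in 4 of the 8 pairs of group means. Its log2 difference, head minus abdomen, was -0.75 ± 0.18 in females (adjusted p = 0.000299) and -0.61 ± 0.21 in males (adjusted p = 0.00854). In females the gap was in F14, with 17.6 against 45.5 CPM in 2N and 16.7 against 49.0 CPM in 3N. In F2 the means were 50.6 against 61.1 CPM in 2N and 45.9 against 47.4 CPM in 3N. In males the F15 2N groups were farthest apart, with 171 CPM in heads and 481 CPM in abdomens. With limma on the log2(TPM + 1) scale the male difference of *Mrjpl3* was -0.24 and did not pass (adjusted p = 0.31). Mean TPM was higher in heads than in abdomens in F2 2N females (72.8 against 67.4), F2 3N females (65.8 against 53.95), F3 2N males (110 against 90.8) and F15 1N males (422 against 374).

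Per length, *Mrjpl3* was the more abundant of the pair in most libraries. The ratio of its TPM to that of *Mrjpl5* was above 1 in 64 of the 75 libraries other than A34, with a median of 2.76. It was highest in F2 2N female abdomens, with 19.2, 43.6 and 241, where *Mrjpl5* was at 0.34 to 2.97 TPM. It was below 1 in all 3 F3 2N male abdomens, with 0.259, 0.369 and 0.616. In F15 male abdomens both genes were at similar TPM, with ratios from 0.930 to 1.12 in 1N and from 1.13 to 1.76 in 2N. In male heads *Mrjpl3* was ahead in every library, with median ratios from 2.44 in F3 1N to 4.89 in F15 1N. In F14 3N female heads the ratio was above 1 in 1 of 5 libraries. These ratios describe the libraries, and they include the groups on which the pair was selected.

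**Figure D3:**
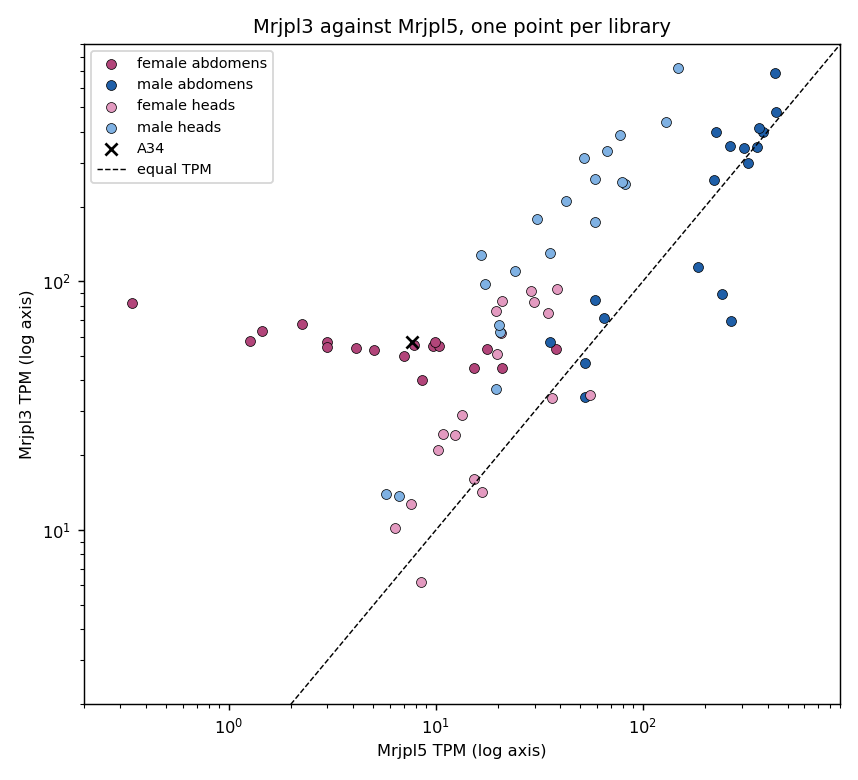
TPM of *Mrjpl3* against TPM of *Mrjpl5* in each library, both on log axes, coloured by sex and tissue; the dashed line marks equal TPM. Female abdomens spread along the *Mrjpl5* axis at nearly constant *Mrjpl3*, male heads lie above the line, and the 3 F3 2N male abdomens lie below it.

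The count table held 16 genes with a royal jelly-like or yellow symbol, 7 royal jelly-like and 9 yellow, of which 14 are other than the pair. In male heads 5 of the 12 others that were tested were higher in the late generation and 4 were lower, against the 51.4% of all genes tested that passed in either direction. *Y-h* rose by 2.21 ± 0.26 on the log2 scale (adjusted p = 1.44e-06) and *Mrjpl4* by 1.41 ± 0.23 (adjusted p = 4.48e-05), while *Y-e* fell by 1.59 (adjusted p = 0.000441) and *Mrjpl8* by 1.17 (adjusted p = 0.0273). In female abdomens 3 of 13 were higher and 1 was lower in the late generation, where 43.9% of all genes tested passed in either direction, with *Y-h* at 2.26 ± 0.41 (adjusted p = 0.000584) and *Mrjpl4* at 1.34 ± 0.35 (adjusted p = 0.00591). The ploidy difference in female abdomens changed between generations in 3 of 13, where 11.3% of all genes tested passed, all with a negative log2 value as in *Mrjpl5*, with *Y-h* at -2.79 ± 0.79 (adjusted p = 0.0371) and *Mrjpl8* at -4.04 ± 1.03 (adjusted p = 0.0282).

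*Y-h*, which overlaps *Mrjpl5*, thus had generation and interaction differences of the same sign as *Mrjpl5* in the comparisons just named. *Y-h* was at 13.8 ± 5.10 CPM (SD, n = 5) in F14 2N female abdomens and at 1.07 ± 0.73 CPM (SD, n = 3) in F2 2N ones. Its level in F3 male abdomens was 20.6 ± 5.19 CPM (SD, n = 5) in 1N and 33.8 ± 8.70 CPM (SD, n = 3) in 2N. How far reads of the overlap enter both genes was not tested. In female heads 4 of 12 others were higher and 5 lower in the late generation, where 60.1% of all genes tested passed. *Mrjpl2* fell there by 2.23 on the log2 scale (adjusted p = 0.00314) and *Mrjpl7* by 1.36 (adjusted p = 0.000157), as *Mrjpl3* did, while *Mrjpl8* rose by 5.19 ± 0.63 (adjusted p = 2.76e-06).

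Between the sexes, 9 of 12 others were higher in 2N male than in 2N female abdomens of the early generation and 1 was lower, where 82.3% of all genes tested passed in either direction. The median log2 difference of these 12 was 3.70, against 0.09 over all genes tested. In the late generation 7 were higher and 2 lower, where 76% of all genes tested passed, with a median of 1.86 against 0.05. *Y-e* was higher by 5.37 ± 0.88 (adjusted p = 4.95e-05) and *Y-h* by 4.86 ± 0.56 (adjusted p = 1.56e-06) in the early generation, and *Mrjpl2* stood at -2.81 ± 0.61 (adjusted p = 0.00069) in the late one. Between tissues, 7 of 14 were higher in female heads than in female abdomens and 4 lower, and 4 were higher and 8 lower in males, where 88.7% and 80.5% of all genes tested passed. In both the sex and the tissue comparisons the share of the family that passed was near that of all genes. *Y-h*, *Y-e3* and *Y-b* went with *Mrjpl5* in both sexes: their log2 differences, head minus abdomen, were 1.23, 1.48 and 1.55 in females and -2.63, -2.63 and -0.92 in males. *Y-e* was higher in heads in both, by 6.69 ± 0.39 in females (adjusted p = 3.03e-17) and 1.31 ± 0.25 in males (adjusted p = 2.11e-05).

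**Figure D4:**
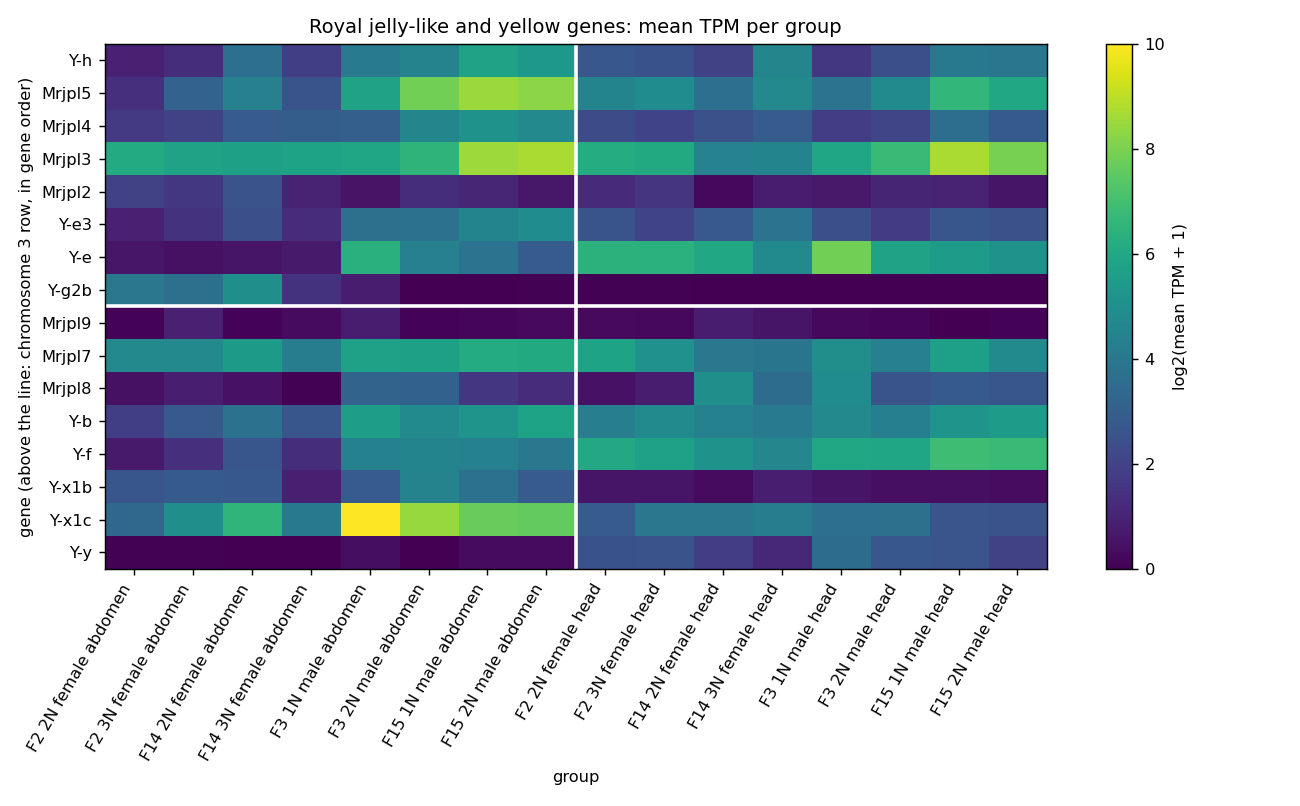
Mean TPM of the 16 royal jelly-like and yellow genes in each group, as log2(mean TPM + 1) in colour, without A34; genes above the white line stand in chromosome order on chromosome 3, and abdomens stand left of the vertical line. *Mrjpl3* has a mean of 20.7 TPM or more in every group, and *Mrjpl5*, *Y-h* and *Y-e3* are brighter in male than in female abdomens.

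For the fat body, the storage and secretory tissue of insects, the list used here found 3 hexamerin genes, which encode storage proteins. Their directions differed among themselves and between comparisons. Between generations in male heads, *Hex83* fell by 2.66 (adjusted p = 1.74e-06) and *Hex109* by 1.03 (adjusted p = 0.00973) on the log2 scale, and *Hex70b* rose by 0.81 (adjusted p = 0.0489). In that comparison 51.4% of all genes tested passed. In F3 male abdomens *Hex83* was higher in 2N by 1.96 ± 0.44 (adjusted p = 0.00206) and *Hex109* by 1.82 ± 0.38 (adjusted p = 0.00122), while *Hex70b* stood at -2.15 ± 0.95 and did not pass (adjusted p = 0.0811). Of all genes tested, 40.9% passed there. In 2N abdomens of the early generation all 3 were higher in males, by 3.19 to 3.98, where 82.3% of all genes tested passed. In those of the late generation 1 of 3 was higher and 0 were lower, where 76% passed. In female abdomens 2 of 3 were higher in the late generation, where 43.9% passed. In male abdomens 0 of 3 were higher and 2 were lower in the late generation, where 53.3% passed. Their median log2 difference there was -1.22, while *Mrjpl3* stood at 2.55 and *Mrjpl5* at 1.70, both described without a test. The part of fat body amount in the results of the pair was not tested.

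The genes with the pattern most like each of the pair were taken by Pearson correlation of the group mean of log2(CPM + 1) over the 16 groups, among 10626 genes. The points share libraries, sex and tissue contrasts, so these values are a description. Nearest to *Mrjpl3* were LOC100115937 and LOC100123429 (r = 0.972 each), LOC100123403 (0.957), LOC100123260 (0.955) and *GST-mic1* (0.954), whose name is that of a microsomal glutathione S-transferase. The next genes with symbols were *Acox3*, named for a peroxisomal acyl-CoA oxidase of fatty acid breakdown (0.949, place 8), and *SPH21*, named for a serine protease homologue (0.923, place 21). *GST-mic1* was at 1813 ± 660 CPM (SD, n = 5) in F15 1N and 253 ± 55.2 CPM (SD, n = 5) in F3 1N male abdomens.

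Nearest to *Mrjpl5* were LOC100121034 (r = 0.981), LOC100677901 (0.979), LOC100679498 (0.978), LOC100120123 and LOC100120629 (0.976 each). Among genes with symbols these were *Akhr*, the receptor of adipokinetic hormone, which mobilises stored fat in insects (0.960, place 16), *Ft* (0.955, place 29) and *Slc25a1*, named for the mitochondrial citrate carrier (0.945, place 53). By Spearman correlation over single libraries their places were 123, 120 and 37. *Akhr* was at 235 ± 30.3 CPM (SD, n = 3) in F3 2N and 59.9 ± 27.3 CPM (SD, n = 5) in F3 1N male abdomens. Of the family, *Y-h* was closest to *Mrjpl5* (0.940, place 64). *Mrjpl3* and *Mrjpl5* correlated at 0.726 with each other, which put *Mrjpl5* at place 469 for *Mrjpl3* and *Mrjpl3* at place 1344 for *Mrjpl5*.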

How the data were processed

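The deposited tables hold expected counts and TPM per gene for 76 libraries. Per the submitters' processing notes, the authors used STAR 2.7.11a and RSEM 1.3.1; neither a genome build nor an annotation is given in the sources used here. That the first table holds expected counts was read from its deposited values, 17.5% of which are not whole. The TPM values were also deposited by the authors.

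Expected counts were rounded, scaled by TMM, filtered by filterByExpr and tested in R 4.3.3 with edgeR 4.0.16 (quasi-likelihood, robust), with Benjamini-Hochberg adjustment over all genes of a fit. Fits held the 4 groups of 1 sex and tissue, the 4 groups of 2N wasps of 1 tissue, or the 8 groups of 1 sex, and A34 was left out. Values after ± are standard errors for log2 differences and SD for levels. Alternatives were RLE size factors, DESeq2 1.42.0, no filter, each library left out and, chosen after seeing the data, limma 3.58.1 on log2(TPM + 1). The code was tested on simulated data.

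The members and lists were chosen with earlier results of these data known. Named genes were the 5 nearest and the 3 nearest with symbols other than LOC numbers, among genes with a group mean of at least 5 CPM, and the family by symbol; protein alignments were not used here. The fat body list matched 3 symbols.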

Additional observations from a re-analysis of the deposited data

Results flagged for a closer look

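The ploidy difference changed from the early to the late generation, by a test of the interaction, for *Mrjpl5* in female abdomens (-4.06 on the log2 scale, adjusted p = 0.0271) and in male heads (-1.65, adjusted p = 0.0228), and for *Mrjpl3* in female abdomens (0.58, adjusted p = 0.0447), all by edgeR. A23, with 25 CPM of *Mrjpl5* in F2 2N female heads, stood apart from the other 4 libraries of its group, at 16.4 to 18.7 CPM, by a gap of 0.73 of the range of the group. Over both genes, 28 sets of 1 gene in 1 group, from 14 groups of libraries, were tested for such a gap, and 1 had it; chance gives about 1 in 20.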

How the results depend on the processing

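With RLE size factors the female abdomen interaction of *Mrjpl3* was 0.51 (adjusted p = 0.0601) and its early abdominal sex difference 0.90 (0.0149) on the log2 scale. DESeq2 gave that sex difference as 0.90 (0.00932), the male head interaction of *Mrjpl3* as -1.82 (0.0414) and the F14 female abdomen ploidy difference of *Mrjpl5* as -1.96 (0.0299). Without the filter the female abdomen interaction of *Mrjpl3* was 0.44 (0.0883). With limma on TPM it was 0.43 (0.14), the F3 male head ploidy difference of *Mrjpl5* 1.06 (0.0215), its F3 male abdomen one 2.12 (not tested) and the male tissue difference of *Mrjpl3* -0.24 (0.31). Without A1A, A2A and A15A the F3 male head ploidy difference of *Mrjpl3* was -0.0796 and the F15 one of *Mrjpl5* -0.86 (0.0336). In TPM 1 of 16 groups kept its place for *Mrjpl3* and 9 for *Mrjpl5*, and with RLE 10 did for *Mrjpl3*. Spearman correlation over libraries kept 1 of the 5 genes nearest to *Mrjpl5*. The causes of these changes were not tested.

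With each library left out in turn, *Mrjpl3* ranged from -0.34 to 0.19 for F2 and from -0.36 to 0.19 for F14 female head ploidy, from -0.24 to 0.33 for the female head interaction, from 0.42 to 0.65 for the female abdomen one and from -2.28 to -1.46 for the male head one (called without A5). Its early sex difference ranged from 0.32 to 0.81 in heads (called without A12 or A13) and from 0.32 to 0.78 in abdomens (called without A20, A87 or A89). *Mrjpl5* ranged from -2.32 to -1.42 for F14 female abdomen ploidy (called without A57 or A67), from -4.86 to -3.57 for the female abdomen interaction and from 0.68 to 1.04 for F3 male head ploidy (called without A3). The generation difference of *Mrjpl5* in female abdomens kept its call in each, with adjusted p up to 0.0499. The female abdomen interaction of *Mrjpl3* lost its call in 13 of 18 runs, with adjusted p up to 0.146. That of *Mrjpl5* lost its call in 7 of 18, with adjusted p up to 0.0623. No paired analysis was possible because the groups share no replicate numbers. Low counts limit *Mrjpl5* in F2 2N female abdomens.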
